A study of Mus musculus with 7 samples.

Results

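The genes that encode the proteins of the cytosolic ribosome were examined in subcutaneous mouse pancreatic ductal adenocarcinoma (PDA) tumors profiled by bulk RNA-seq. Members were all rows of the expression table whose symbol is Rpl or Rps followed by a number and at most 1 of the letters a, l or x, together with *Rplp0*, *Rplp1*, *Rplp2* and *Rpsa*. This gave 82 of 38026 rows, of which 32 are named for proteins of the small 40S subunit and 50 for proteins of the large 60S subunit, including the 3 proteins of its stalk. The mouse annotation lists 79 of them as protein coding and the other 3 (*Rpl6l*, *Rpl32l* and *Rps4l*) as processed pseudogenes, which are counted among the members all the same. A few ribosomal proteins have symbols of another form (among them *Rps3a1*, *Fau*, *Rack1* and some paralogs) and are given separately.

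The tumors were grown for 2 weeks in C57BL/6 mice from the 1242 cell line, which was made from a pancreatic tumor of a genetically engineered mouse that carries, among other alleles, mutant *Trp53* and Pdx1-Cre. All of the cells had been transduced with a lentivirus carrying Cas9. The control cells carried a scrambled guide RNA (sgScramble, n = 4 tumors) and the edited cells carried a guide RNA against *Krt19* (sgKrt19, n = 3 tumors). KRT19 is a keratin of simple epithelia, and the study asked what its loss does to the CXCL12 on cancer cells and to the immune response. The study made polyclonal lines and single-cell clones, and the labels do not say which of them, or which guide, formed the sequenced tumors. A tumor holds host cells as well as cancer cells, so fewer cells of a type and less RNA per cell cannot be told apart in these values. No statement was found that the tumors of a group came from separate cultures, so p-values measure the spread between these tumors only.

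A ribosome is built from ribosomal RNA and one copy of nearly every ribosomal protein, so cells make these proteins in matched amounts. Many of their mRNAs begin with a C and a run of pyrimidines, the 5′ terminal oligopyrimidine (TOP) motif, through which growth signaling by mTOR and the binding protein *Larp1* control translation. Several ribosomal proteins have paralogs that are made mainly in particular tissues, such as *Rpl3l* in striated muscle and *Rpl39l* in the testis.

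The start of a transcript is where the TOP motif lies, so the 30 bases around the annotated start are shown for 6 members with and without it. Windows run from 12 bases before the start to 18 bases from it, on the strand of the gene, in the RefSeq annotation of GRCm38.p6. Capitals mark a run of at least 7 pyrimidines that begins with C within 10 bases of the start. The windows are those of *Rps6* at chr4:86857350-86857379 (minus strand), *Rps10* at chr17:27635227-27635256 (minus), *Rps18* at chr17:33955648-33955677 (minus), *Rps27* at chr3:90213631-90213660 (minus), its paralog *Rps27l* at chr9:66946074-66946103 (plus) and *Rpl3l* at chr17:24727814-24727843 (plus).
Rps6: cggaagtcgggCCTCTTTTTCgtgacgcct
Rps10: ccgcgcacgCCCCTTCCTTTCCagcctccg
Rps18: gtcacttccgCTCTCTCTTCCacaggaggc
Rps27: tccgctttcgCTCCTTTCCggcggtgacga
Rps27l: ctcctccccgccgcctctatcccggaagtt
Rpl3l: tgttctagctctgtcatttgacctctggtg

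The RefSeq table held a promoter for 60 of the 82 members. A C at the annotated start followed by at least 4 pyrimidines was found in 14 of the 60 (23.3%), against 3.01% of all 27025 promoters. The longer run within 10 bases of the start was found in 26 (43.3%), against 12.9% of all promoters. In the window from 250 bases before to 50 bases after the start, CCGGAAG, a sequence bound by ETS-family factors such as GABPA, was present on either strand in 25 members (41.7%), against 9.93% of all promoters. ATGGCGG, a sequence bound by YY1, was present in 10 (16.7%), against 4.69%. TATAAA on the gene's strand was present in 6 (10.0%), against 9.77%. Over transcripts in place of promoters, 22 of the 79 protein-coding members had at least 1 transcript in GENCODE M21 that began with the same TOP pattern (27.8%), against 5.67% of 14839 genes. These are matches of letters in an annotated window and were not tested as sites.

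Depth was 40781199 to 44972100 reads per library, and values are read counts scaled by a size factor for each library. *Krt19*, the edited gene, was at 17841 to 27618 in the sgScramble libraries and 1606 to 2470 in the sgKrt19 libraries (log2 fold change −3.52 ± 0.183, SE, with an adjusted p of 1.74e-05 by limma), which is the direction the labels give. Differences were tested with limma on log2(value + 1), with Benjamini-Hochberg adjustment over all 21322 genes that passed a filter on low values, and a gene was called at an adjusted p under 0.05. Fold changes are given as sgKrt19 against sgScramble on that log2 scale. All 82 members passed the filter, *Rpl3l* only through the sgKrt19 libraries, where it is high.

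Ribosomal protein mRNAs stood higher in the sgKrt19 tumors as a set, by a moderate amount, and the tumors of each group differed widely among themselves. All 82 members had a log2 fold change above 0, against 50.5% of all genes tested. Their median was 0.54 (quartiles 0.39 and 0.68, range 0.15 to 3.18), beside a median of 0.0072 over all genes tested. limma called 30 of the 82 as higher (36.6%) and 0 as lower, where 17.9% of all genes tested were called higher and 16.0% lower. At an unadjusted p under 0.05 the counts were 54 higher and 0 lower. The share of all genes at that threshold was not counted, so these 2 counts do not set the members apart from other genes. edgeR's quasi-likelihood test called 32 higher and 0 lower, and DESeq2 called 50 higher and 0 lower, beside 17.3% (edgeR) and 19.3% (DESeq2) of all genes called higher and 16.4% and 18.1% called lower by those tools. The sgKrt19 libraries lay above every sgScramble library for 37 members (45.1%), which was the case for 21.7% of all genes tested, and they lay below every sgScramble library for 0 members and 19.3% of all genes.

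**Figure D1:**
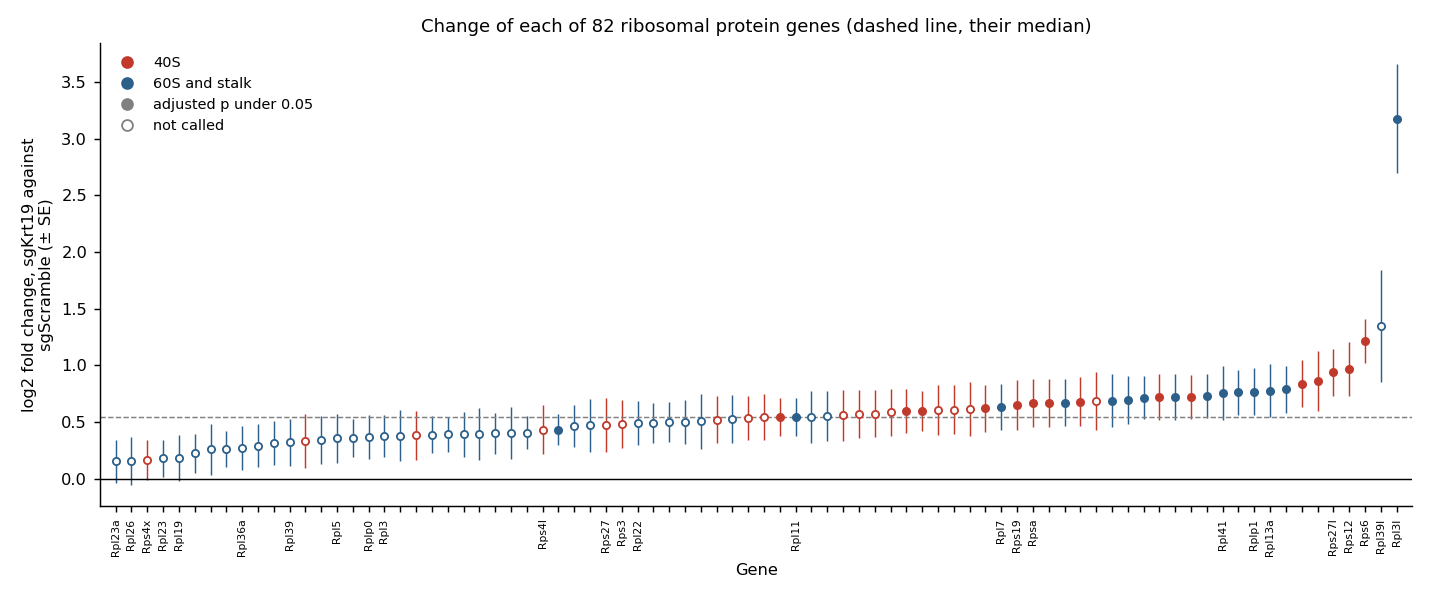
Log2 fold change of each of the 82 genes, sgKrt19 (n = 3) against sgScramble (n = 4), with its standard error, in ascending order and with names under some of the genes. Red marks 40S genes and blue 60S and stalk genes, filled points passed the adjusted p threshold, and every point lies above 0, from *Rpl23a* at 0.15 to *Rpl3l* at 3.18.

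How much of a library the members took up shows the same overlap. The 82 genes held 6.92%, 5.53%, 6.46% and 4.88% of the summed values in sgScramble libraries 1 to 4 (mean 5.95% ± 0.919, SD, n = 4). They held 8.72%, 6.55% and 7.17% in sgKrt19 libraries 5, 6 and 8 (mean 7.48% ± 1.12, SD, n = 3). The sgKrt19 libraries 5 and 8 were above every control, but sgScramble 1 was above sgKrt19 6, so the groups overlapped. The members rose and fell together from tumor to tumor. The library sgKrt19 5 was the highest of the 7 for 81 members, and sgScramble 4 was the lowest for 80. Within the groups, sgScramble 1 was the highest control for 76 members and sgKrt19 6 the lowest edited tumor for 71.

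**Figure D2:**
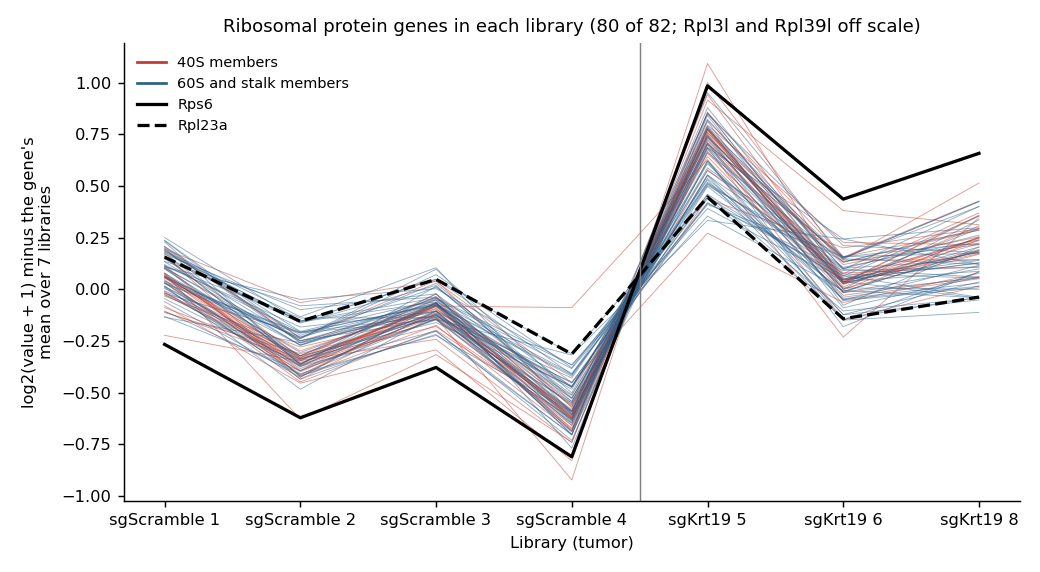
Deviation of log2(value + 1) from each gene's mean over the 7 libraries, with 1 line for each of 80 genes (*Rpl3l* and *Rpl39l* lie off the scale); lines join libraries only to follow a gene, and the libraries of a group have no order. Nearly all genes share the pattern, with sgScramble 4 lowest and sgKrt19 5 highest, and *Rps6* (solid black) stands apart from it while *Rpl23a* (dashed) runs through all 7 libraries with little difference between groups.

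The count of called members rested on single libraries more than the direction did, although some members turned sign in several settings. Without sgKrt19 5 the members called higher were 5 (6.10% of them) and the median was 0.34, 2 of the 82 log2 fold changes were below 0, and 11.8% of all genes were called higher and 11.8% lower. Without sgScramble 2 they were 6 (7.32%, against 12.5% of all genes), without sgScramble 4 they were 11 (13.4%, against 13.7%) and without sgKrt19 8 they were 14 (17.1%, against 12.9%). The share of members called was thus below that of all genes without sgKrt19 5 or sgScramble 2 and near it without sgScramble 4. Without sgScramble 1 the count was 49 (59.8%, against 19.4% of all genes). In an alternative added after the data were seen, the libraries with the highest and the lowest share were both left out (sgKrt19 5 and sgScramble 4), and 3 members were called, namely *Rps6*, *Rps27l* and *Rpl3l*, beside 10.0% of all genes called higher and 9.17% lower. There the member median was 0.24, and 12 of the 82 log2 fold changes were below 0. With values rescaled to equal library totals, which moved the median of all genes to −0.21, 18 were called and the member median was 0.32, beside 10.2% of all genes called higher and 26.9% lower. With that rescaling 5 of the 82 were below 0.

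Other short transcripts moved with the members. The median transcript of a member had 705 bases, beside 2708.5 bases over the tested protein-coding genes. Among protein-coding genes that are no members, those with a transcript under 1 kb had a median log2 fold change of 0.35, and 34.0% of these 1297 genes were called higher. The median was 0.18 from 1 to 2 kb, −0.0075 from 2 to 4 kb and −0.20 at 4 kb or more. The median deviations of the short class in the 7 libraries ran in the same order as those of the members, from −0.33 in sgScramble 4 to 0.44 in sgKrt19 5 (members, −0.59 to 0.70). After each library was regressed on transcript length and GC content, 22 members were called (26.8%, against 18.9% of all genes). The median of the 82 members was then 0.35, and 4 of them were below 0. The 18 members with transcripts of 1 kb or more had a median of 0.60 and the 64 shorter ones a median of 0.53. The part of transcript length or RNA quality in the difference was not tested beyond these values.

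Markers of the other cells of a tumor also moved between the groups. The summed values of 12 skeletal muscle markers were 124 to 3117 in the sgScramble libraries (highest in sgScramble 3) and 25699 to 36917 in the sgKrt19 libraries, and limma called 12 of 12 higher. Of 9 T cell markers 8 were higher, with sums of 529 to 1040 and 3107 to 5875, and 6 of 6 leukocyte markers were higher (10087 to 14183 and 16812 to 23202). Of 8 epithelial markers 5 were higher (123486 to 170992 in sgScramble and 269853 to 278119 in sgKrt19). Most of these sums came from Krt8, Krt18 and Cdh1, while Krt7 (−1.03), Cldn4 (−1.23) and Epcam (0.06) were not called, so the tumors carried the epithelial keratins and cadherin of the labelled tissue in both groups. Fibroblast markers were not called in either direction by limma or edgeR (0 of 7, also at an unadjusted p under 0.05), with 1 lower by DESeq2 and the highest sum, 231648, in sgScramble 4. No marker of these lists was at or under the floor of 3 reads in all 7 libraries. Their part in the change of the members was not tested.

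The 40S proteins were examined next. All 32 were above 0 with a median of 0.60, and 15 were called higher (46.9%, against 17.9% of all genes). *Rps6*, the 40S protein that S6 kinases phosphorylate, had the largest change among members with a mean of at least 1000. Its value was 47927, 37473, 44363 and 32876 in sgScramble libraries 1 to 4, and 114062, 78005 and 90958 in sgKrt19 libraries 5, 6 and 8. The lowest edited tumor thus lay well above the highest control. This was a log2 fold change of 1.21 ± 0.193 (SE), with an adjusted p of 0.00135 by limma. It was called in all 20 alternative settings, with log2 fold changes of 0.74 to 1.34. Rows named as pseudogenes of *Rps6* held 125% of its value in sum, and how reads that fit several copies were shared out is not given in the sources used here.

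*Rps12*, a 40S protein known in the fly as a sensor in cell competition, was at 59757, 46090, 51537 and 35522 in sgScramble and at 126276, 69726 and 90169 in sgKrt19. The groups did not overlap, although sgKrt19 6 was only a little above sgScramble 1. On the log2 scale it was higher by 0.97 ± 0.240 (SE), with an adjusted p of 0.0127 by limma, and without sgKrt19 5 and sgScramble 4 together the adjusted p was 0.0549. The 23 rows named as pseudogenes of *Rps12* held 142% of its value in sum, so the limit on shared reads given for *Rps6* holds here too. *Rps21* and *Rps20*, named after their values were seen, followed at 0.87 and 0.84 and were called. Of the 40S proteins with other known roles, *Rps19*, which is mutated in Diamond-Blackfan anemia, was higher by 0.65 (SE 0.220, adjusted p = 0.0439). *Rpsa*, which also has a laminin receptor form, was higher by 0.67 (SE 0.208, adjusted p = 0.0322). *Rps3*, which also acts in DNA repair, was at 0.48 (SE 0.214, adjusted p = 0.104) and was not called. *Rps4x*, encoded on chromosome X, had the smallest 40S change at 0.17 (SE 0.180, adjusted p = 0.496).

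The 60S proteins changed less. All 50 were above 0, with a median of 0.45 and 15 called higher (30.0%, against 17.9% of all genes). The summed 60S values were 1.51, 1.55, 1.51 and 1.57 times the summed 40S values in sgScramble libraries 1 to 4 (mean 1.54 ± 0.0308, SD, n = 4) and 1.34, 1.43 and 1.37 times in sgKrt19 libraries 5, 6 and 8 (mean 1.38 ± 0.0475, SD, n = 3). Every sgKrt19 library was below every sgScramble library. The difference of the means was −0.157, and it stayed between −0.184 and −0.137 when 1 library was left out. No p is given for a sum over members. Sums weigh genes by their values, and *Rps6* and *Rps12*, both 40S genes with high values, had large changes. Their part in the ratio was not tested. As means of log2(value + 1), which weigh genes alike, 60S minus 40S differed by −0.087 between the groups. Subunit and chromosome are mixed in this contrast. All members on chromosome 11 except *Rps27a*, and all on chromosome X except *Rps4x*, are 60S. The member medians of these 2 chromosomes were low (0.18 and 0.30), and their part in the subunit difference was not tested.

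*Rplp0*, a stalk protein often used as a reference gene in expression assays, was at 96816, 78900, 83122 and 65381 in sgScramble and 123132, 92382 and 97867 in sgKrt19. The controls and edited tumors overlapped, since sgScramble 1 was above sgKrt19 6. Its log2 fold change was 0.37 (SE 0.195, adjusted p = 0.164). The other stalk proteins, *Rplp1* and *Rplp2*, were called higher at 0.77 (SE 0.209, adjusted p = 0.0185) and 0.69 (SE 0.211, adjusted p = 0.0296).

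*Rpl5* and *Rpl11*, which bind *Mdm2* and join p53 to ribosome assembly, had values of 0.36 (SE 0.215, adjusted p = 0.218) and 0.54 (SE 0.171, adjusted p = 0.0336), so that *Rpl11* alone of this pair was called. Whether they differed from each other was not tested. *Rpl13a*, which also represses translation of inflammatory mRNAs in the GAIT complex, was higher by 0.78 (SE 0.235, adjusted p = 0.0290). *Rpl22*, which acts in T cell development, was at 0.49 (SE 0.198, adjusted p = 0.0782). *Rpl3* and *Rpl39* were at 0.38 and 0.32 and were not called, and *Rpl7* was called at 0.63.

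Levels between genes were compared per kb of the principal transcript. Over all 7 libraries *Rpl41*, the shortest ribosomal protein, had the highest mean value per kb (146616), followed by *Rps12* (138542) and *Rplp1* (100987), and all 3 were called higher. The lowest were *Rpl3l* (25.01 per kb), *Rpl39l* (103) and *Rps4l* (184). *Rps4l*, a copy of *Rps4x*, was at 111 to 133 in sgScramble and 120 to 218 in sgKrt19 (log2 fold change 0.43, SE 0.215, adjusted p = 0.141).

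Because the members moved together between tumors, each was also set against the median member of its own library. This was added after the data were seen, and the multiples are read within a gene only, since they are not per length. *Rps6* was at 1.41, 1.47, 1.51 and 1.54 times the library median in sgScramble and at 2.36, 2.46 and 2.59 times in sgKrt19. The spread within a group fell to 3.77% and 4.63% of the mean, and the sgKrt19 mean was 66.8% above the control mean. *Rpl23a* was at 1.58, 1.71, 1.70 and 1.82 times the median in sgScramble and at 1.36, 1.38 and 1.34 times in sgKrt19, with every edited tumor below every control. *Rplp0* ran from 2.83 to 3.10 in sgScramble and from 2.55 to 2.92 in sgKrt19, and the groups overlapped.

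On this scale the composition of the set differed between the groups. When all genes were refitted with libraries scaled to the members, 8 of 82 members were called higher, where 3.49% of all genes were, and 3 were called lower, where 19.2% of all genes were. The scaling itself sets the members near 0 (median 0.067) and moved the median of all genes to −0.46. The shares of all genes follow from that shift, so they are no yardstick for the members here. The higher ones included *Rps6* (0.74, SE 0.0878, limma adjusted p = 0.000827), *Rps12* (0.49), *Rps20* (0.36), *Rpl13* (0.31), *Rpl13a* (0.30), *Rpl41* (0.28) and *Rpl3l* (2.75). The lower ones were *Rpl23a* and *Rpl26* (both −0.32) and *Rpl19* (−0.29). The median change of the 40S members was 0.13 and that of the 60S members −0.02 on this scale.

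**Figure D3:**
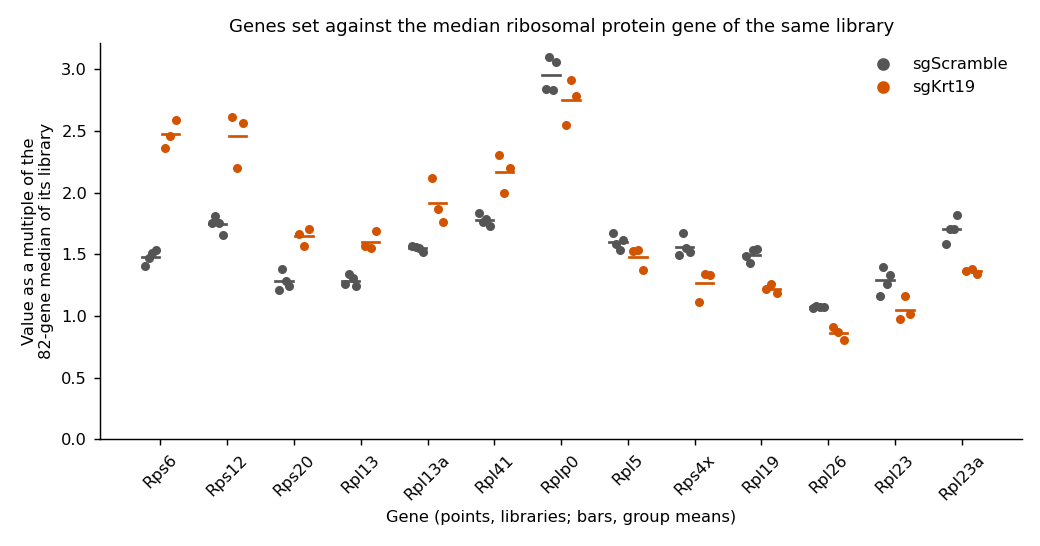
Value of 13 genes as a multiple of the median of the 82 ribosomal protein genes in the same library, with 1 point per library and bars at group means; the axis starts at 0 and genes are not corrected for length. *Rps6* runs from 1.41 to 1.54 in sgScramble and 2.36 to 2.59 in sgKrt19, while *Rpl23a*, *Rpl26* and *Rpl19* lie lower in sgKrt19.

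The members that changed least lay mostly on chromosome 11. The 5 smallest log2 fold changes of the 82 were those of *Rpl23a* (0.15), *Rpl26* (0.16), *Rps4x* (0.17), *Rpl23* (0.18) and *Rpl19* (0.18), and all but *Rps4x* lie on that chromosome. *Rpl26*, which binds the p53 mRNA, was at 36377, 27469, 31642 and 22995 in sgScramble and 44133, 27587 and 28303 in sgKrt19. Apart from sgKrt19 5, the edited tumors lay within the range of the controls. All 7 members on chromosome 11 had values between 0.15 and 0.33 (median 0.18). None of the 7 was called by limma, edgeR or DESeq2, and 0 had an unadjusted p under 0.05. The 75 members elsewhere had a median of 0.55 with 30 called higher, where 17.9% of all genes were, and 6 of the 75 were below the highest chromosome 11 member. A count of 0 called is not particular to chromosome 11, since limma called none of the 22 members on 8 other autosomes either.

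The 1199 tested genes of chromosome 11 that are no members had a median of −0.21, with 402 called lower (33.5%, against 16.0% of all genes) and 137 called higher (11.4%, against 17.9%). Chromosomes 3 and 16 had nearly the same median over their other genes (−0.20 and −0.18), while the medians of their 2 and 3 members were 0.44 and 0.40. *Krt19* itself lies on chromosome 11, and the nearest members, *Rpl27* (0.29), *Rpl19* and *Rpl23*, are 1.30, 2.12 and 2.36 Mb from it. *Rps27a* (0.33), 70.6 Mb away, had the largest change of the 7, and *Rpl38* (0.26) lies 14.5 Mb away. The 4 members on chromosome X had values from 0.17 to 0.36 with 0 called by any of the 3 tools and 0 at an unadjusted p under 0.05, beside a median of −0.18 over the other 475 tested genes there. The part of chromosomal position in these values was not tested.

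*Rps6* lies on chromosome 4 (chr4:86854660-86857412, GRCm38, minus strand, 5 exons). The 6 other tested genes within 1 Mb had log2 fold changes of 0.40 to 0.84 with a median of 0.63, and 5 were called higher, where 17.9% of all genes were. Named after their values were seen, they include *Acer2* (0.84), *Mllt3* (0.75), *Plin2* (0.67), *Rraga* (0.60) and *Haus6* (0.48). *Rraga* encodes a Rag GTPase that brings amino acid signals to mTOR, and its value was 2112 to 2693 in sgScramble and 3332 to 3733 in sgKrt19. Within 5 Mb, 22 of 40 genes were called higher and 2 lower. Some of those 40 are interferon-like genes with nearly the same values, which may share reads. Around *Rps12* on chromosome 10, 3 of 9 genes within 1 Mb were called higher and 1 lower, with a median of 0.18 and a lowest value of −1.38. There, 17 of 38 genes within 5 Mb were called higher and 2 lower, with a median of 0.41.

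Across members, the change followed that of the chromosomal neighbourhood. The median log2 fold change of the other tested genes within 5 Mb had a Spearman correlation of 0.645 and a Pearson correlation of 0.641 with that of the member over 80 members, leaving out *Rpl3l* and *Rpl39l*. With those included (n = 82) the values were 0.608 and 0.349. Without the chromosome 11 members as well (n = 73) they were 0.568 and 0.561. Members are not independent here, because they share libraries and some share neighbours (16 to 213 genes a window), so no p is given. Among the 80 members, *Rps21* (0.87, neighbours −0.42) was the farthest from the trend, and the omitted *Rpl3l* (3.18, neighbours 0.05) and *Rpl39l* (1.35, neighbours −0.09) lay farther still.

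**Figure D4:**
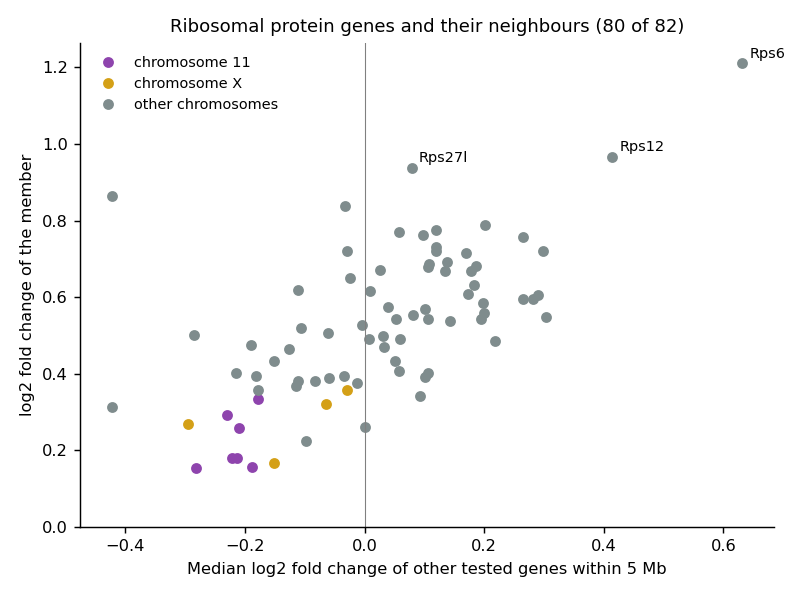
Log2 fold change of 80 members against the median log2 fold change of the other tested genes within 5 Mb, with 1 point per member. The chromosome 11 members (purple) sit at the lower left, between 0.15 and 0.33, and *Rps6* and *Rps12* at the upper right, with neighbour medians of 0.63 and 0.41.

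Paralogs were compared with the genes they copy, which asks whether a paralog moved by another amount than its parent. The coding sequences of *Rps27* and *Rps27l*, and of *Rpl39* and *Rpl39l*, are shown because they are close in length and differ throughout, with differing bases in capitals. They are from GENCODE M21 (GRCm38), with gene spans of chr3:90212522-90213651 (minus strand), chr9:66946086-66949516 (plus), chrX:37082520-37085402 (minus) and chr16:10170226-10174911 (plus) in the order printed.
Rps27: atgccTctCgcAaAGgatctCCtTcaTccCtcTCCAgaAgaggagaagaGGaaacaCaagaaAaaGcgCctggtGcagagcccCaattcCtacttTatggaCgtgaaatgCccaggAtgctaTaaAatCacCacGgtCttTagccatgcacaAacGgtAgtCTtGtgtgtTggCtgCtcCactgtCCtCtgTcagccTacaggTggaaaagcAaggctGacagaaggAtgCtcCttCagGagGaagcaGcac
Rps27l: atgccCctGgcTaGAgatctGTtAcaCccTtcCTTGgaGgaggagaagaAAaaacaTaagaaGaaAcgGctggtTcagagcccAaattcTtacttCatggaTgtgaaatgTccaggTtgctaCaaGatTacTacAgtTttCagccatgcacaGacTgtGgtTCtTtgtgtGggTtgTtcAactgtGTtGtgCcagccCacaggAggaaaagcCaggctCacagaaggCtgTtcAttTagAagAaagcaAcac
Rpl39: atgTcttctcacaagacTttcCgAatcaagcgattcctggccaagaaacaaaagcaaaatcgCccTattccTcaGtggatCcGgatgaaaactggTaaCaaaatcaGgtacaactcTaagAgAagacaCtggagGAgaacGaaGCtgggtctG
Rpl39l: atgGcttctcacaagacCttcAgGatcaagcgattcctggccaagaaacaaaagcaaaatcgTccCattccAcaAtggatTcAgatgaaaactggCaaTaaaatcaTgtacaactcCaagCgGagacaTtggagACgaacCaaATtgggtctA

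*Rps27* and *Rps27l* differ at 60 of 252 coding bases (76.2% identical), and their longest identical run is 11 bases. *Rpl39* and *Rpl39l* differ at 23 of 153 (84.97% identical), with a longest identical run of 38 bases. *Rpl3l* is 73.2% identical to *Rpl3* with a longest run of 22 bases, and *Rpl36al* is 87.7% identical to *Rpl36a* with a longest run of 24. Other copies in the genome were not searched for.

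*Rps27l*, a paralog that p53 is known to induce, was at 2301, 1411, 1752 and 1306 in sgScramble and 4115, 2840 and 2708 in sgKrt19, with no overlap. On the log2 scale *Rps27l* was higher by 0.94 ± 0.208 (SE), with an adjusted p of 0.00766 by limma, while *Rps27* differed by 0.48 (SE 0.237, adjusted p = 0.143). As a percent of *Rps27*, *Rps27l* was 7.005, 6.10, 6.17 and 6.91 in sgScramble and 8.26, 9.87 and 8.96 in sgKrt19. The difference in the log2 ratio was 0.46 (exact permutation p = 0.0571, two-sided, adjusted p = 0.133 over 7 pairs). An exact test of 4 against 3 libraries has 35 splits and cannot give a p below 0.0571.

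*Rpl3l*, the muscle paralog of *Rpl3*, was at 11.1, 2.96, 9.13 and 4.64 in sgScramble and 72.8, 35.01 and 105 in sgKrt19. Every edited tumor was above every control, at a level far under that of *Rpl3*. The value in sgScramble 2 was at the floor of 3 reads, and of the controls only sgScramble 1 reached the filter value of 10. *Rpl3l* thus entered the limma test only through the sgKrt19 libraries, where it is high, and its call carries that limit. On the log2 scale it was higher by 3.18 ± 0.484 (SE), with an adjusted p of 0.00104 by limma, and *Rpl3l* was 0.00570% to 0.0171% of *Rpl3* in sgScramble and 0.0555% to 0.169% in sgKrt19 (log2 ratio difference 2.80, exact permutation p = 0.0571, adjusted p = 0.133). The skeletal muscle markers above moved with it between the groups. Among the controls, sgScramble 3 had 16.7 to 25.2 times the muscle marker sum of the other 3, while its *Rpl3l* value lay within their range. The part of muscle tissue in the *Rpl3l* value was not tested further.

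*Rpl36al*, a paralog of *Rpl36a* that lies outside the rule for members, was 56.5%, 45.1%, 56.2% and 54.7% of *Rpl36a* in sgScramble and 63.2%, 71.5% and 69.6% in sgKrt19. The groups did not overlap (log2 ratio difference 0.36, exact permutation p = 0.0571, adjusted p = 0.133). *Rpl36al* was called higher at 0.63 and *Rpl36a*, on chromosome X, was not called at 0.27.

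The other 4 pairs overlapped between the groups. *Rpl39l*, the testis paralog of *Rpl39*, was at 18.6, 29.6, 80.4 and 18.5 in sgScramble and 119, 51.0 and 79.8 in sgKrt19, where sgScramble 3 was above both sgKrt19 6 and sgKrt19 8. The change of 1.35 ± 0.492 (SE, log2) was the second largest of the members, had an adjusted p of 0.0572 by limma and was not called, and the log2 ratio to *Rpl39* differed by 1.03 (exact permutation p = 0.229). Of the male germ cell markers tested, *Sycp3* was called higher and *Ddx4* lower, and *Prm2* was at or under the floor of 3 reads. The log2 ratio differences were 0.27 for *Rps4l* to *Rps4x* (exact permutation p = 0.400), −0.0043 for *Rpl22l1* to *Rpl22* (p = 0.971) and −0.28 for *Rpl7l1* to *Rpl7* (p = 0.114). Rpl10l was not analysed here.

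**Figure D5:**
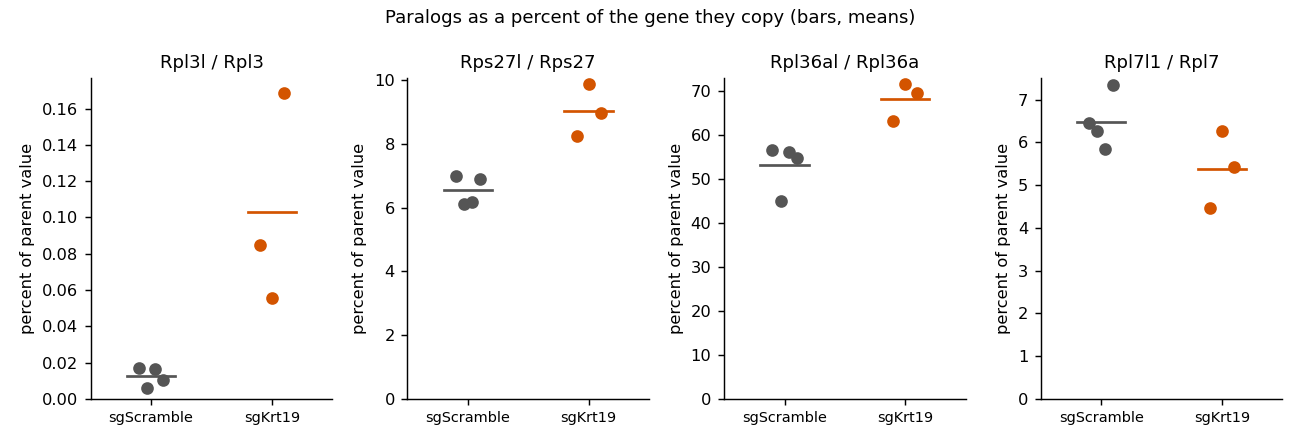
Value of 4 paralogs as a percent of the value of their parent gene, with 1 point per library (4 sgScramble, 3 sgKrt19) and bars at group means, on axes that start at 0 and differ in scale. The groups do not overlap for *Rpl3l*, *Rps27l* (6.10 to 7.005 and 8.26 to 9.87) and *Rpl36al*, and overlap for *Rpl7l1*.

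Genes of the pathway that are no members were examined in lists. Of the 7 other cytosolic ribosomal protein genes, all were above 0 (median 0.39) and 3 were called higher (42.9%, against 17.9% of all genes), among them the paralogs *Rpl36al* (0.63) and *Rpl7l1* (0.35). *Rps3a1* (0.30), *Fau* (0.39) and the scaffold *Rack1* (0.14, on chromosome 11) were not called. Of 20 other genes with TOP mRNAs, 5 were called higher (25%, near the 17.9% of all genes) and 0 lower (also 0 lower at an unadjusted p under 0.05 and by edgeR and DESeq2), with a median of 0.29. *Gas5*, a noncoding host of small nucleolar RNAs, was the highest (0.75) and *Eif3k* the lowest of those called (0.42). The elongation factors *Eef1a1* (0.30) and *Eef2* (0.21), *Tpt1* (0.62) and *Npm1* (−0.04) were not called.

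Of 30 ribosome biogenesis factors, limma called 10 higher and 0 lower (33.3% higher, against 17.9% of all genes), and 20 were not called. Their median was 0.23 with 5 values below 0, and there were 0 lower at an unadjusted p under 0.05 or by edgeR or DESeq2. The highest was *Eif6*, which keeps free 60S subunits from joining (0.75, SE 0.143, adjusted p = 0.00339), and *Nob1*, the nuclease that ends 18S rRNA maturation, was the lowest of those called (0.40). The nucleolar protein *Ncl* was called at 0.44. Of 13 genes for RNA polymerase I and its factors, 3 were higher and 2 lower (median 0.05), from *Polr1e* (0.75) to *Taf1b* (−0.58). These are 23.1% higher and 15.4% lower, near the 17.9% and 16.0% of all genes. Of 80 rows for mitochondrial ribosomal proteins (78 symbols), 28 were called higher (35%, against 17.9% of all genes) and 0 lower, with a median of 0.36. That share was near the 36.6% of the 82 members, so a raised share of calls was not particular to the cytosolic set. However, 7 of the 80 rows were below 0, where 0 of the members were. There was 1 lower at an unadjusted p under 0.05 and 0 lower by edgeR and DESeq2. The called rows ran from *Mrps15* (0.38) to *Mrpl50* (0.92).

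Regulators of these mRNAs and of growth signaling made up the last list. Of 25 rows (24 symbols), 1 was called higher (4.0%, against 17.9% of all genes) and 6 lower (24.0%, against 16.0% of all genes and 27.2% of protein-coding genes with transcripts of 4 kb or more), with a median of −0.16. The one that rose was *Eif4ebp1*, a repressor of cap-dependent translation that mTOR inactivates, at 2756, 2071, 2215 and 1862 in sgScramble and 4850, 4666 and 3707 in sgKrt19. The groups did not overlap, and the change was 0.99 ± 0.151 (SE, log2, adjusted p = 0.00104). *Mycn* fell by 1.58 (SE 0.128, adjusted p = 4.56e-05), from 2395, 2364, 2824 and 2349 in sgScramble to 977, 727 and 793 in sgKrt19, with no overlap. *Myc*, the better known activator of ribosome genes, was at 4097 to 4357 in sgScramble and 3694 to 5831 in sgKrt19 (0.13, adjusted p = 0.495).

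*Mtor* itself fell by 0.46 (SE 0.141, adjusted p = 0.0295). *Rictor*, a subunit of mTOR complex 2, and *Rps6kb1*, which encodes S6 kinase 1, were named after their values were seen and fell by 0.93 and 0.57. *Larp1*, which binds TOP mRNAs, was at −0.32 (SE 0.143, adjusted p = 0.107) and was not called. The transcript lengths of these regulators were not compared with those of other genes, and the part of length in their values was not tested.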

How the data were processed

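Each of the 7 tumors gave 1 library, entered as 1 replicate of its group by its label. The authors deposited 1 table with 38026 rows, and its values are a signal, namely reads per gene divided by a size factor for each library. Reads came out whole for 100% of the values in every library. The submitters' notes name the build mm10, and the study's methods name a stranded total RNA kit, while the labels give polyA RNA. The aligner, the counting program and the rule for reads that fit several genes are not given in the sources used here. Libraries made from total RNA and from polyA RNA can differ for short transcripts, and no library batch or date is given.

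Rows that reached a value of 10 in 3 or more libraries entered the test, limma 3.58.1 (R 4.3.3) on log2(value + 1) with an intensity trend, the group as the only term and Benjamini-Hochberg adjustment. The pseudocount of 1 understates changes of low genes. edgeR 4.0.16 (quasi-likelihood) and DESeq2 1.42.0 were run on the recovered reads as alternatives. Ratios of paralog to parent were compared by a two-sided exact permutation test (scipy 1.17.1) over 35 splits. A floor of 3 reads (a value of 2.74 to 3.47) covers counting error only, since reads carry no molecular identifiers.

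Positions, transcript lengths and coding sequences came from GENCODE M21 (GRCm38) by gene identifier, which matched 37095 rows, and promoters from RefSeq (GRCm38.p6) by symbol. Rows named as pseudogenes of members number 258 and held 2.13% to 3.91% of the values. No other row was within 1% of a member in every library. Members without pseudogene-named rows (28, 10 called) had a median log2 fold change of 0.55, and the other 54 (20 called) 0.53.

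The members, lists and named genes were chosen with earlier results of these data known. The genes named are *Krt19*, paralogs and parents, the 5 largest and 5 smallest changes, the 3 highest and 3 lowest values per kb, 9 members and 12 other genes with known roles, and the highest and lowest called gene of each list. Genes outside this rule are said to be named after their values were seen. The fit was tested on simulated reads with known changes. The 2 processing choices of scaling to the member median and of leaving out both extreme libraries were added after the data were seen. A few named items are not reported here.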

Additional observations from a re-analysis of the deposited data

Results flagged for a closer look

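Of 118 values searched over the 4 sgScramble libraries, 2 had 1 library far from the other 3 (1.69%, where chance gives about 1 in 20). *Mycn* was 2824 in sgScramble 3 and 2349 to 2395 in the other controls, a gap of 0.902 of the whole range, and all 3 sgKrt19 libraries lay below every control at 727 to 977. *Rpl36al* was 45.1% of *Rpl36a* in sgScramble 2 and 54.7% to 56.5% in the other controls, a gap of 0.838 of the range. When any 1 library was left out, the log2 fold change of *Mycn* was −1.70 to −1.49 and the log2 ratio of *Rpl36al* to *Rpl36a* differed by 0.29 to 0.42. Groups of 3, such as sgKrt19, were not searched.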

How the results depend on the processing

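No paired analysis was possible because the groups share no replicate number. The called members (30 as reported) are given here with their share and that of all genes called higher. They numbered 27 to 32 with another pseudocount, another filter, TMM factors or edgeR (32.9% to 39.0%, against 10.1% to 20.2%). They were 22 after correction for GC content and length (26.8%, against 18.9%) and 19 without a trend (23.2%, against 15.0%). With library size only they were 18 (22.0%, against 10.2%), as they were without the members in the library size (22.0%, against 10.9%). DESeq2 called 50 (61.0%, against 19.3%). When 1 library was left out they were 5 to 49 (6.10% to 59.8%, against 11.8% to 19.4%). Without both extreme libraries 3 members were called (3.66%, against 10.0%), and the member median was 0.24. In that setting 3979 genes were called in all, where 7240 were called with all libraries. Scaled to the member median, 11 members were called in either direction, the median of all genes shifted to −0.46 and the member median was 0.067. Calls over the lists of related genes (58 as reported) were 36 without a trend, 27 to 76 when 1 library was left out (27, 31, 28 and 35 without sgScramble 2, sgScramble 4, sgKrt19 5 and sgKrt19 8), and 16 both with the member median and without the extreme libraries. Of all calls, 27.5% were higher with library size only and 15.4% when scaled to the member median, in place of 52.8%. The member median ran from 0.34 to 0.67 without 1 library, the difference in share from 0.910 to 2.00 percentage points (1.53 as reported), *Krt19* from −3.68 to −3.37, and all genes called from 4861 to 7714. As means of log2(value + 1) the members were higher by 0.57, and 60S minus 40S differed by −0.087. Log2 ratio differences without 1 library ran from 2.37 to 3.16 (*Rpl3l*), 0.71 to 1.45 (*Rpl39l*), 0.40 to 0.53 (*Rps27l*), 0.16 to 0.43 (*Rps4l*), 0.29 to 0.42 (*Rpl36al*), −0.40 to −0.15 (*Rpl7l1*) and −0.049 to 0.052 (*Rpl22l1*, whose sign turned without sgScramble 1, sgScramble 3 or sgKrt19 6, at 0.031, 0.0021 and 0.052). Members without a near-identical row were all 82, so that alternative changed no value, and log2 means were already the scale of the paralog ratios.

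Log2 fold changes of named genes turned sign in these settings, and the cause was not tested. With library size only, *Rps4x* −0.051, *Rpl19* −0.036, *Rpl23* −0.038, *Rpl26* −0.060, *Rpl23a* −0.062, *Myc* −0.084, *Eef2* −0.0017, *Rack1* −0.079. Without the members in the library size, *Rps4x* −0.027, *Rpl19* −0.012, *Rpl23* −0.014, *Rpl26* −0.036, *Rpl23a* −0.038, *Myc* −0.060, *Rack1* −0.055. After correction for GC content and length, *Rps4x* −0.0045, *Rpl19* −0.0084, *Rpl26* −0.053, *Rpl23a* −0.051. Scaled to the member median, *Rps4l* −0.038, *Rpl7l1* −0.12, *Rpl3* −0.097, *Rpl39* −0.15, *Rps4x* −0.31, *Rpl36a* −0.20, *Rpl19* −0.29, *Rpl23* −0.30, *Rpl26* −0.32, *Rpl23a* −0.32, *Rplp0* −0.10, *Rpl5* −0.12, *Myc* −0.34, *Ncl* −0.032, *Eef1a1* −0.17, *Eef2* −0.26, *Rps3a1* −0.18, *Fau* −0.086, *Rack1* −0.34, *Eif3k* −0.055, *Nob1* −0.070, *Mrps15* −0.094, *Rps27a* −0.14, *Rpl27* −0.18, *Rpl38* −0.21. Without both extreme libraries, *Rpl39* −0.038, *Rps4x* −0.050, *Rpl36a* −0.060, *Rpl19* −0.098, *Rpl23* −0.044, *Rpl26* −0.18, *Rpl23a* −0.11, *Rps3a1* −0.023, *Fau* −0.0069, *Rack1* −0.11, *Rps27a* −0.066, *Rpl27* −0.0088, *Rpl38* −0.14. When 1 library was left out, the range was −0.064 to 0.28 for *Rpl26*, −0.024 to 0.27 for *Rpl23a* and −0.013 to 0.23 for *Rack1*, each lowest without sgKrt19 5, and −0.032 to 0.30 for *Myc*, lowest without sgKrt19 8. *Npm1* turned sign without sgKrt19 8 (0.055) and without sgScramble 1 (0.048). Over the named genes and alternatives, 1079 values kept direction and side of the threshold, 147 lost the call, 10 gained it and 63 turned sign. *Rps6*, *Rpl3l* and *Krt19* were called in every setting that could fit them. *Rpl3l* passed the filter of 10 only through the sgKrt19 libraries, where it is high, and is left out by the filter of 50. With 4 and 3 tumors, changes of about 0.5 on the log2 scale are near what the spread between tumors (SE 0.138 to 0.492 for members) lets pass.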
